A study of Mus musculus with 78 samples.

Results

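A set of 10 genes of arginine methylation and of paraspeckles were followed in single blastomeres of the mouse embryo: Carm1, Sox21, Prmt1, Prmt5, Prmt6, Prmt7, Neat1, Nono, Pspc1 and Sfpq. They were taken by their Entrez identifiers from the gene tables of the 4-cell and the 8-cell stage, and all 10 were listed in both, where 15218 genes were listed for 4-cell and 15342 for 8-cell blastomeres. The values are FPKM, which scale a gene's fragments by its length and by the fragments of the library, so that levels of different genes are compared per length. Logarithms are log2(FPKM+1). In GRCm38.p6 the genes lie at chr9:21546894-21589467 (Carm1), chr14:118233233-118237030 (Sox21), chr7:44976755-44986420 (Prmt1), chr14:54507182-54517470 (Prmt5), chr3:110246104-110250999 (Prmt6), chr8:106211054-106251694 (Prmt7), chr19:5824708-5845480 (Neat1), chrX:101429560-101448593 (Nono), chr14:56722441-56778318 (Pspc1) and chr4:127020716-127051101 (Sfpq).

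Protein arginine methyltransferases transfer methyl groups from S-adenosylmethionine to arginines of histones and RNA-binding proteins. Carm1 encodes a methyltransferase of histone H3 and of splicing and paraspeckle proteins, and blastomeres with more of it have been linked to the inner cell mass. Paraspeckles are nuclear bodies that form on the long noncoding RNA Neat1 and hold the related RNA-binding proteins NONO, PSPC1 and SFPQ. Sox21 encodes a transcription factor that has been placed downstream of Carm1 in early blastomeres.

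The embryos came from mice with the CAG-Brainbow2.1 construct at Gt(ROSA)26Sor (allele tm1, laboratory codes Cle and J), crossed with Tg(CAG-cre/Esr1*)5Amc/J mice, so that every blastomere of both stages carried a single copy of the Brainbow-2.1 reporter and of the tamoxifen-inducible Cre, each under the ubiquitous CAG promoter. All embryos were collected at the 2-cell stage (46 hpi in the labels), exposed to 4-hydroxytamoxifen for 2 h and then cultured in KSOM medium, and there was no untreated group. The sample labels describe 78 single blastomeres from embryos of the 4-cell to the 8-cell stage, of which 36 are 4-cell and 31 are 8-cell blastomeres. The tables hold 24 columns for the 4-cell and 26 for the 8-cell stage, of which 5 at the 8-cell stage are named NA, and no column name points to an embryo or to a lineage. Each stage was therefore treated as 1 sample, the spread between blastomeres is a description, and no p-value was computed.

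The denominator of the FPKM, estimated from the steps of low values, was 6864684 to 16857650 fragments at the 4-cell and 2334307 (S57) to 21725671 fragments at the 8-cell stage, where the second lowest was 12551912. A 4-cell blastomere had 3009 to 8276 genes above an FPKM of 1 and an 8-cell blastomere 3548 to 8078. The gene-poor columns were S18 and S20 at the 4-cell stage, with 3009 and 3699 genes, and S57 and S58 at the 8-cell stage, with 3548 and 4263. All 8 oocyte and blastomere markers were listed at both stages, and 7 of them in the 4-cell and 5 in the 8-cell table were above 1 FPKM in more than 12 blastomeres. Dppa3 lay between 1303 and 10167 FPKM in all 50 blastomeres, while Ooep was above 1 FPKM in 11 of 24 and 9 of 26, Nlrp5 in 17 and 9 and Gdf9 in 13 and 9. Of 8 cumulus and granulosa markers 6 were not listed, Has2 was at most 0.0279 FPKM, and Amhr2 was at 3.65 to 111 FPKM in every blastomere. Of the sperm markers, Prm1 and Prm2 were above an FPKM of 1 in at most 2 blastomeres of a stage, and of 4 markers of other somatic cells Col1a1 alone was listed, at the 8-cell stage, with a highest value of 0.0115 FPKM.

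The start regions of 4 members are shown because they belong to members at high and at low levels. RefSeq windows of GRCm38.p6 were found for 8 of the 10 members, and Carm1 and Neat1 had no window. In the 250 bases before the start, the pentamer CCAAT or its complement ATTGG occurred in 5 of the 8 windows and at least 2 times in 4 of them, against 33.8% and 10.1% of all 32851 windows of this length. Among windows of genes with a 4-cell mean above 10 FPKM these shares were 37.3% and 14.6%. Both strands were searched, and CCAAT and ATTGG can share 2 letters where they meet. The members with at least 2 occurrences were Prmt1 with 3, Prmt5 with 4, Sfpq with 4 and Nono with 2. Pspc1 had 1, and none was found for Sox21, Prmt6 and Prmt7. An annotated exon of Sfpq starts at or before the first base of its window, and an exon of Nono starts within its window, so that all 4 matches of Sfpq and 1 of the 2 of Nono lie at or after an exon start. The motif TATAAA was in none of the 8 windows, in 12.4% of all and in 6.15% of those of genes with a 4-cell mean above 10 FPKM. These matches are letters in a window, and binding was not measured. The printed stretches end before the first annotated exon of the gene and run 5′ to 3′ on the strand of the gene, with CCAAT or ATTGG in capitals. Of the 2 matches of Nono, 1 lies in the printed stretch. That of Prmt1 lies at chr7:44986421-44986670 on the minus strand, that of Prmt5 at chr14:54517471-54517720 on the minus strand, that of Nono at chrX:101429401-101429559 on the plus strand and that of Prmt6, which has no such match, at chr3:110251000-110251249 on the minus strand.
Prmt1: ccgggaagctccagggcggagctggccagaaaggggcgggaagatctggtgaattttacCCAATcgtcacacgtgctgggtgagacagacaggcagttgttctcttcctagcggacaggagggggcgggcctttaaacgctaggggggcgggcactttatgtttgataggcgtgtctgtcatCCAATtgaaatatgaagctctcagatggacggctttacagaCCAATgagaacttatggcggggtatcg
Prmt5: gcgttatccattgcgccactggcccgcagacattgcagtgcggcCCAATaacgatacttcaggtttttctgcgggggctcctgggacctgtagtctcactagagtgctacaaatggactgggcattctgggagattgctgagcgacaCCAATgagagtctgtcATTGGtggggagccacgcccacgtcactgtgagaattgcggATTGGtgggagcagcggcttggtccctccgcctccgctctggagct
Nono: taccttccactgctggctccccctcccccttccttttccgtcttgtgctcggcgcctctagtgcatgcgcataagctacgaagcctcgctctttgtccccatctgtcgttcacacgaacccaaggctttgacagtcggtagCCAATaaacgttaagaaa
Prmt6: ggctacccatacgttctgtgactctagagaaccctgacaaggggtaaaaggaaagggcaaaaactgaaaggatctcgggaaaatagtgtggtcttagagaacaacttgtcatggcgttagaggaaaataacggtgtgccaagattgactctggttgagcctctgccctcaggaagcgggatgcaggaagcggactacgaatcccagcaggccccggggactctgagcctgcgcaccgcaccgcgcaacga

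The members covered a wide range of levels, and their order was similar at the 2 stages. Among 4-cell blastomeres the median FPKM was 180 for Nono, 108 for Prmt5, 44.8 for Prmt1, 18.4 for Pspc1, 16.1 for Sfpq, 15.1 for Prmt7, 2.79 for Prmt6, 0.993 for Sox21, 0.0225 for Carm1 and 0 for Neat1. The interquartile ranges of neighbours in this order overlapped except between Prmt5 and Prmt1 and between Prmt1 and Pspc1. By the 8-cell stage the medians were 229 for Nono, 152 for Prmt5, 63.7 for Prmt1, 24.5 for Sfpq, 24.4 for Prmt7, 16.3 for Pspc1, 0.856 for Carm1, 0.371 for Sox21, 0.230 for Neat1 and 0.0645 for Prmt6. There the interquartile ranges of neighbours did not overlap between Prmt5 and Prmt1, between Prmt1 and Sfpq and between Pspc1 and Carm1. The gene tables were deposited separately, each under the name of its stage, and their numbers of genes are those that the study gives.

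**Figure D1:**
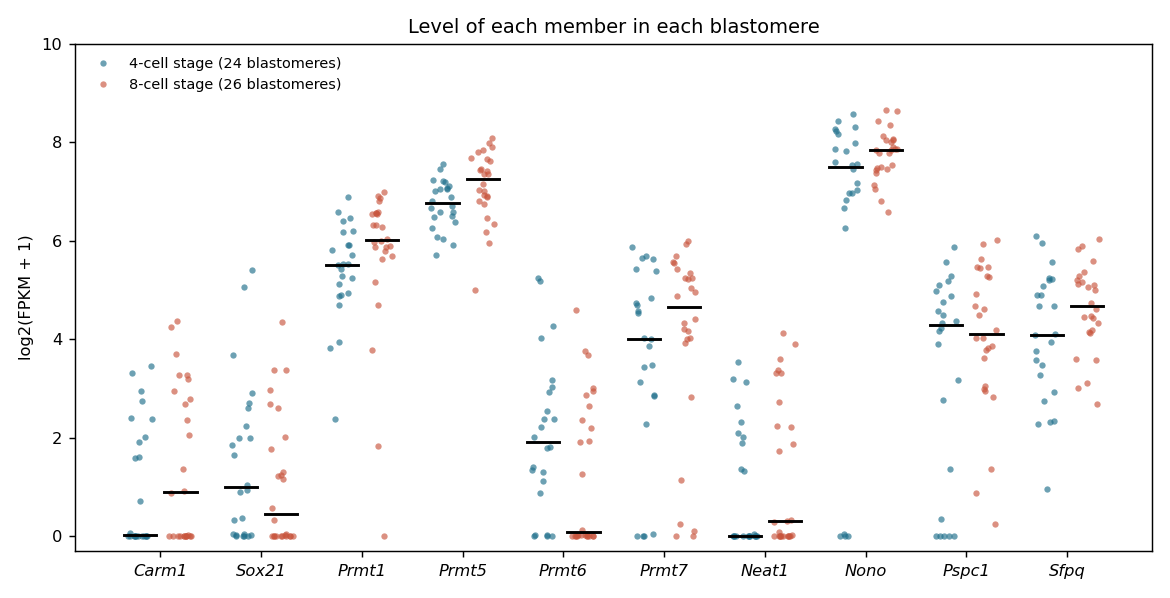
Level of each of the 10 members, as log2(FPKM+1), in the 24 blastomeres of the 4-cell stage and the 26 of the 8-cell stage. Each point is a blastomere and each bar the median of a stage. Carm1, Sox21, Prmt6 and Neat1 have many points at 0, and Nono has 4 points at or near 0 at the 4-cell stage and none at the 8-cell stage.

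Carm1 RNA was found in some blastomeres and not in others. At the 4-cell stage it was at 0 in 12 of the 24 blastomeres, at 0.0449 FPKM in S1 and 0.644 FPKM in S7, and at 2.01 to 9.97 FPKM in the other 10. These last values stood for 78 to 501 fragments. An expected count of 3 fragments was taken as an approximate upper limit for a count of 0. In these libraries it would give 0.0554 to 0.136 FPKM of Carm1. Among 8-cell blastomeres it was at 0 in 11 of the 26 blastomeres, at 0.0158 to 0.886 FPKM in 3 and at 1.58 to 19.8 FPKM in 12. The highest values were 19.8 FPKM in S54, 17.97 FPKM in S55 and 12.1 FPKM in S60. Fragments carry no molecular identifiers, so these limits cover counting error only.

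Sox21 was patchy too, with a few high blastomeres. At the 4-cell stage it was at 0 in 4 blastomeres, between 0.0171 and 0.921 FPKM in 8, and between 1.07 and 41.6 FPKM in 12. The values of 41.6 FPKM in S19 and 32.2 FPKM in S20 stood above the next, 11.8 FPKM in S11. At the 8-cell stage 10 blastomeres were at 0, 12 were above 1 FPKM, and the highest value was 19.5 FPKM in S61. Column S20 is among the gene-poor columns, and whether this bears on its Sox21 level was not tested.

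Carm1 and Sox21 had correlations near 0 at both stages. Among 4-cell blastomeres both were above an FPKM of 1 in 6 of the 24 blastomeres, Carm1 alone in 4, Sox21 alone in 6 and neither in 8. Pearson's r between their log2(FPKM+1) values was 0.06 and Spearman's rho 0.11, and 41.2% of the 9511 genes with a mean above 1 FPKM had a lower r with Carm1. By the 8-cell stage both were above 1 FPKM in 6 of the 26 blastomeres, Carm1 alone in 6, Sox21 alone in 6 and neither in 8. There r was -0.07 and rho -0.01, and 32.6% of 9275 genes had a lower r. These correlations are over blastomeres, some of which share an embryo that the columns do not name, and over libraries that differ in depth.

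**Figure D2:**
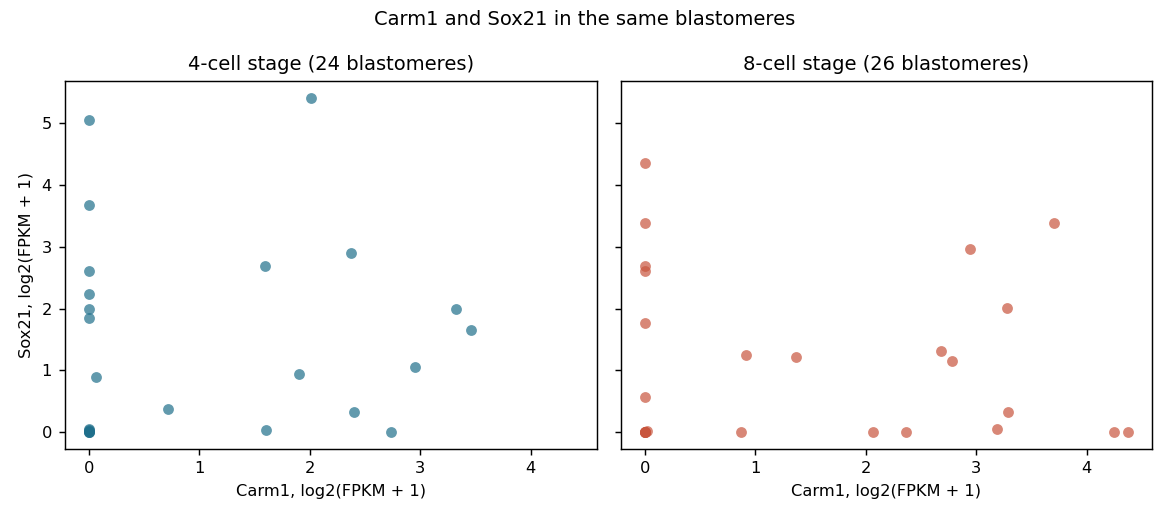
Sox21 (vertical axis) against Carm1 (horizontal axis), both as log2(FPKM+1), in each blastomere of the 4-cell stage (left, 24) and the 8-cell stage (right, 26). Points lie along both axes and between them, and r was 0.06 in 4-cell and -0.07 in 8-cell blastomeres.

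Among the other members, Pspc1 had the highest r with Carm1 over all columns of both stages. At the 4-cell stage r was 0.37 and rho 0.34, above the r of 93.3% of the 9511 genes, and at the 8-cell stage r was 0.46 and rho 0.54, above 99.0% of the 9275 genes. With the number of genes above 1 FPKM, r was 0.35 for Carm1 and 0.52 for Pspc1 in 4-cell blastomeres. In 8-cell blastomeres these were 0.06 and 0.15. With log10 fragments in the denominator, r of Pspc1 was 0.39 and 0.46, and that of Carm1 0.18 and 0.15. How gene number and depth bear on this pair was not tested. Nono had the lowest r with Carm1 over all columns of both stages, with -0.36 in 4-cell and -0.31 in 8-cell blastomeres. Without the 4-cell columns S13 to S16, which are described below, r of Carm1 with Nono was -0.11 and with Pspc1 0.35, and the lowest was then -0.33, with Sfpq. Without the gene-poor columns r with Pspc1 was 0.30 in 4-cell blastomeres, below 0.36 with Prmt6 and 0.34 with Prmt1, and 0.51 in 8-cell blastomeres, where the lowest were -0.28 with both Sfpq and Nono. With Neat1, r of Carm1 was -0.06 in 4-cell and 0.25 in 8-cell blastomeres. Both RNAs were above 1 FPKM in 5 of the 24 and in 6 of the 26 blastomeres. With Nanog, a factor of the inner cell mass, r was 0.07 and 0.34, and with Pou5f1, which encodes OCT4, it was 0.09 and -0.13. Sox2 was not among the listed genes at either stage, and Cdx2, a trophectoderm factor, was listed at the 8-cell stage, above 1 FPKM in 4 of 26 blastomeres.

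Of all genes with a mean above 1 FPKM, Polr3f, a subunit of RNA polymerase III, had the pattern most like Carm1 at the 4-cell stage, with an r of 0.78, followed by Cep78 with 0.74, Orai1 with 0.73, Tmem129 with 0.72 and Mia3 with 0.72. Among 8-cell blastomeres the highest r was 0.73 with Rec114, followed by Cdc42se1 with 0.67, Kdm8 with 0.66, Ubqln4 with 0.63 and Asb13 with 0.62. The lists of the 2 stages, 5 of 9511 and 5 of 9275 genes, shared no gene. Lists this short would rarely share a gene in any case, so this says little about a change between the stages. The central 95% of the genes had an r with Carm1 from -0.31 to 0.46 over the 24 and from -0.35 to 0.40 over the 26 blastomeres.

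Of the other methyltransferases, Prmt5, the main enzyme of symmetric dimethylation, was in every blastomere. It ran from 51.4 FPKM in S21 through a median of 108 to 189 FPKM in S9 at the 4-cell stage, and from 30.9 FPKM in S55 through 152 to 270 FPKM in S57 at the 8-cell stage. The highest 8-cell value is that of the shallowest column. Its partners in the methylosome were high too. Wdr77 had medians of 157 and 160 FPKM and Clns1a, which presents Sm proteins to the complex, 215 and 165 FPKM, again with no blastomere at 0. The alternative adaptors Riok1 and Coprs had lower medians, 20.4 and 13.2 FPKM for Riok1 and 20.7 and 19.5 FPKM for Coprs. Over the 24 4-cell blastomeres Prmt5 had an r of 0.45 with Clns1a and -0.11 with Wdr77, and over the 26 8-cell blastomeres 0.13 and -0.22.

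Prmt1, the main enzyme of asymmetric dimethylation, ran from 4.24 FPKM in S7 through a median of 44.8 to 118 FPKM in S20 at the 4-cell stage. At the 8-cell stage it was at 0 in S53 and at 2.57 FPKM in S54, and ran up to 126 FPKM in S56 with a median of 63.7. In S53 the limit of 3 fragments is 0.107 FPKM, so that the 0 lies well below the other blastomeres. Prmt7, which monomethylates arginine, was at 0 in S18, S20 and S24 at the 4-cell stage, at 0.0300 FPKM in S19, and at 3.87 to 57.5 FPKM in the other 20. S18, S20 and S24 had the fewest genes above 1 FPKM, and r of Prmt7 with that number of genes was 0.75 in 4-cell and 0.35 in 8-cell blastomeres. Prmt6, which methylates histone H3 at arginine 2, ran from 0 in 3 blastomeres through 2.79 to 37.1 FPKM in S19, with 35.5 FPKM in S20, the columns that were highest for Sox21 also. By the 8-cell stage Prmt6 was at 0 in 9 blastomeres and highest, at 23.2 and 12.6 FPKM, in the gene-poor columns S58 and S57. How gene number bears on these values was not tested.

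Of 15 further genes of arginine methylation, all were listed at the 4-cell stage and 14 at the 8-cell stage, and 11 and 12 of them were above 1 FPKM in more than 12 blastomeres, as were 43.2% of all genes listed for 4-cell and 41.2% of those listed for 8-cell blastomeres. The highest at both stages were Clns1a, Wdr77 and Smn1, a reader of methylated Sm proteins, with medians of 119 and 153 FPKM for Smn1. Jmjd6 followed at the 4-cell stage, with medians of 109 and 62.4 FPKM. Prmt3 had medians of 44.5 and 64.4 FPKM. Prmt2 was above 1 FPKM in 6 and in 5 blastomeres, and Prmt8 was above 0 in 1 blastomere of the 4-cell stage, at 0.0991 FPKM. Padi6, an oocyte member of the peptidylarginine deiminases, had medians of 24.6 and 30.1 FPKM, and Padi4 medians of 0.

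Neat1 was as patchy as Carm1. At the 4-cell stage it was at 0 in 13 of the 24 blastomeres, at 0.0270 FPKM, a single fragment, in S7, and at 1.503 to 10.6 FPKM in 10. Among 8-cell blastomeres it was at 0 in 10 of the 26, at 0.0177 to 0.264 FPKM in 5 and at 2.32 to 16.5 FPKM in 11. Taking its lowest value as 1 fragment gives a length of 3184 bases, and all 6 values below 20 fragments, that one included, are then whole within 0.1 of a fragment. The short transcript has 3185 bases (chr19:5842296-5845480 of GRCm38.p6, minus strand) and the long one 20771 bases (chr19:5824708-5845478). The length used is thus near that of the short transcript, which lies within the long one but for its first 2 bases, and the long transcript, on which paraspeckles are built, cannot be told apart from it. All 10 blastomeres of the 4-cell stage with Neat1 above 1 FPKM also had Pspc1 above 1 FPKM, as did 8 of the other 14. At the 8-cell stage these numbers were 10 of 11 and 14 of 15. Over all blastomeres r of Neat1 with Pspc1 was 0.48 (rho 0.42) at the 4-cell and 0.25 (rho 0.12) at the 8-cell stage, and r of Neat1 with the number of genes above 1 FPKM was 0.51 and 0.12. The genes most like Neat1 were Pramel12 with an r of 0.84, Wdr41, Dydc1 and Hkdc1 at the 4-cell stage and Rab26os with 0.73, 8430426J06Rik, B3galt4, Zcchc7 and Dusp28 at the 8-cell stage.

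Nono, which lies on chromosome X (101429560 to 101448593 in GRCm38.p6), was the highest of the 10 members and the one with the sharpest difference between blastomeres. Among 4-cell blastomeres it was at 0.0296 FPKM, a single fragment, in S13 and at 0 in S14, S15 and S16, while the other 20 blastomeres ran from 76.1 FPKM in S6 through a median of 191 to 382 FPKM in S21. By the 8-cell stage all 26 blastomeres lay between 95.7 and 405 FPKM. The 4 columns had 13407897 to 16857650 fragments, the values of S14 and S16 being above all others of the stage, and 6722 to 7912 genes above 1 FPKM, within the range of the others. Their lack of Nono was shared by other X-linked genes. The summed FPKM of the 542 listed X-linked genes was 152 to 238 in S13 to S16, against 9897 to 25119 in the other 20 and 11838 to 26751 in the 26 8-cell blastomeres. As a share of all FPKM, the median was 0.0381% in the 4 columns and 4.09% in the other 20. For the 19 autosomes, which carry all the other members, the median share in the 4 columns was 0.978 to 1.13 times that in the other 20.

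The 20 genes with the highest r with Nono at the 4-cell stage all lay on chromosome X, against 2 of 20 at the 8-cell stage. Of all listed genes, 542 of 15218 at the 4-cell and 576 of 15342 at the 8-cell stage were X-linked. Xist, the X-linked RNA of X inactivation, was at 0 in S13 to S16 and above 1 FPKM in 8 of the other 20, and the Y-linked gene Ddx3y was at 0.675 to 21.99 FPKM in the 4 columns, above 1 FPKM in 3 of them and in 8 of the other 20. The column names give no embryo, and the cause of the missing X-linked RNA was not tested. In the same 4 columns Pspc1 ran from 16.98 to 46.7 FPKM, Sfpq from 0.952 to 46.2 FPKM, Prmt5 from 59.8 to 138 FPKM and Carm1 from 0 to 9.97 FPKM, within the range of the other 20 except for Sfpq in S15 and S14, which was lower, and Carm1 in S16, which was higher.

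**Figure D3:**
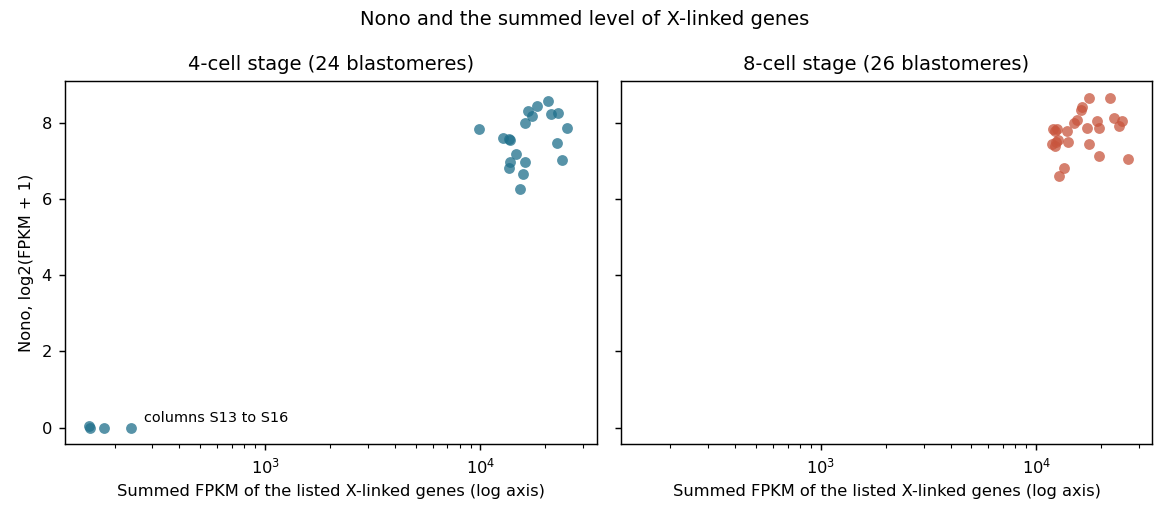
Nono as log2(FPKM+1) (vertical axis) against the summed FPKM of the listed X-linked genes (horizontal axis, logarithmic) in each blastomere of the 4-cell stage (left) and the 8-cell stage (right). Columns S13 to S16 of the 4-cell stage, with sums of 152 to 238, stand apart from all other points, which have sums of at least 9897.

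The partners of Nono were lower. Sfpq was above 0 in every blastomere, from 0.952 FPKM in S15 through 16.1 to 67.3 FPKM in S18 at the 4-cell stage and from 5.41 FPKM in S51 through 24.5 to 64.2 FPKM in S63 at the 8-cell stage. Pspc1 was at 0 in S9, S18, S20, S21 and S23 and otherwise ran from 0.272 FPKM up to 58.01 FPKM in S5, with a median over all 24 of 18.4. Among 8-cell blastomeres it was above 0 in all 26 blastomeres, from 0.181 FPKM in S57 through 16.3 to 63.3 FPKM. Pspc1 and Sfpq had r of -0.31 in 4-cell and -0.40 in 8-cell blastomeres, and Nono and Sfpq 0.38 and -0.07. Over the 45 pairs of members r ran from -0.45 to 0.48 at the 4-cell and from -0.40 to 0.46 at the 8-cell stage, and 1 pair, Carm1 with Pspc1, was above 0.3 at both. The pairs Carm1 with Nono and Pspc1 with Sfpq were below -0.3 at both, and without S13 to S16 they were at -0.11 and -0.26 in 4-cell blastomeres. Without the gene-poor columns none of the 3 pairs passed 0.3 in size at both stages, with the 4-cell r of Carm1 with Pspc1 at 0.295.

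All 14 further paraspeckle genes were listed at both stages, and 13 of them were above 1 FPKM in more than 12 blastomeres of each, against the same 43.2% and 41.2% of all listed genes. Hnrnpk, whose product favours the long Neat1 transcript, had the highest medians, 399 and 409 FPKM. Tardbp had medians of 63.2 and 68.4 FPKM and Ewsr1 44.8 and 64.1 FPKM. Rbm14, which is needed for paraspeckles to form, had medians of 5.02 and 10.99 FPKM, and Dazap1 had 0.370 and 0.373 FPKM. Malat1, the neighbouring nuclear noncoding RNA, had medians of 26.0 and 24.2 FPKM and was above 1 FPKM in all 24 and in 25 of the 26 blastomeres. Rbmx, also X-linked, had a single value above 1 FPKM in S13 to S16 against 18 of the other 20.

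Carm1 and Sox21 were no more uneven between 4-cell blastomeres than many genes of like level. Unevenness was taken as the SD of log2(FPKM+1) over the blastomeres of a stage and set against the 200 listed genes nearest in mean. This SD mixes differences between embryos with those between blastomeres of an embryo, which cannot be separated without embryo names. At the 4-cell stage the SD was 1.28 for Carm1, against a median of 1.35 over its 200 genes, of which 36.5% were lower. Carm1 was at 0 in 12 blastomeres, and genes of like mean in a median of 11. Sox21 had an SD of 1.61 against 1.56, with 59.5% lower, Neat1 1.27 against 1.29 with 48.5% lower and Prmt6 1.57 against 1.70 with 38.5% lower. By the coefficient of variation of FPKM, which weighs the highest blastomeres most, 92.5% of the genes of like mean were below Sox21 and 23.5% below Carm1. Without S19, the highest blastomere for Sox21, the share below Sox21 by SD was 43.0%, and without S2, the highest for Neat1, the share below Neat1 was 30.5%.

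Prmt5 had an SD of 0.49 against 0.87 and 9.50% of genes lower, and Prmt1 had 20.5% and Sfpq 27.5% lower. Without the gene-poor columns S18 and S20 these shares were 25% for Prmt5, 51.5% for Prmt1 and 32.5% for Sfpq. With single columns left out, the share for Prmt1 was 13.5% without S7 and 36.5% without S18, and that for Prmt5 6.0% without S9 and 14.5% without S20. Prmt7 had 70.5% of its 200 genes below it. Nono had an SD of 2.95 against 1.14, above all 200 genes, and without S13 to S16 an SD of 0.66 against 0.70, with 46.5% lower. Pspc1, with an SD of 2.13 against 1.65, had 90% of its genes below it, the least that counts for the most uneven 10%, and 86.5% without S13 to S16. It stayed in that class in 8 of the 24 fits that left out 1 blastomere, with 78.0% to 93.5% below it. Nono and Pspc1 were the 2 of 10 members in that class, which held 8.23% of all 15218 genes, and neither was in it without the 4 columns.

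At the 8-cell stage no member was among the most uneven 10%, a class that held 7.65% of all 15342 genes. Carm1 had 46.0% of its 200 genes below it, Sox21 27.5%, Prmt6 45.0%, Neat1 46.5%, Nono 44.5%, Pspc1 34.5% and Sfpq 11.5%. Prmt7 had 76.0%, Prmt5 69.0% and Prmt1 83.0%. Prmt1 passed into the class without S57 or without S58, and without S53, where it was at 0, the share below it was 59.0%. The share below Prmt5 was 45.0% without S55, its lowest column.

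**Figure D4:**
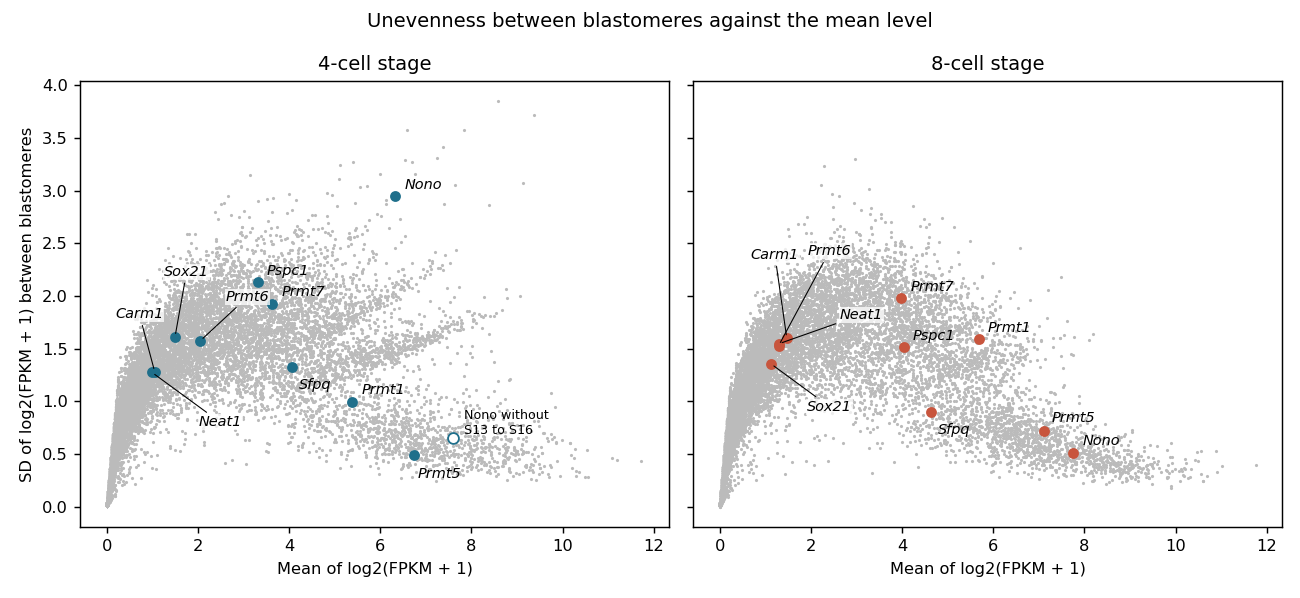
SD of log2(FPKM+1) between blastomeres (vertical axis) against its mean (horizontal axis) for all genes listed at the 4-cell stage (left) and the 8-cell stage (right). Grey dots are genes, coloured dots the 10 members, and the open dot is Nono without S13 to S16, which lies at an SD of 0.66 where the filled dot lies at 2.95.

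Between the stages, no member had means more than 2-fold apart, which was so in 15.5% of the 13604 genes listed in both tables towards the 8-cell and in 22.3% towards the 4-cell stage. Carm1 had a mean of 2.10 FPKM in 4-cell and 4.00 FPKM in 8-cell blastomeres, a ratio of 1.91, and Neat1 1.995 and 3.37 FPKM, a ratio of 1.69. Sox21 went the other way, with means of 5.02 and 2.59 FPKM and a ratio of 0.516, and Prmt6 had 6.65 and 3.38 FPKM and a ratio of 0.508. For all 10 members the ranges of the 2 stages overlapped. The other 6 members had ratios of 1.24 for Prmt7, 1.25 for Sfpq, 1.25 for Pspc1, 1.30 for Nono, 1.37 for Prmt5 and 1.38 for Prmt1. By medians Pspc1 went the other way, with a ratio of 0.88. The median ratio was 1.28 over the members and 0.944 over all genes. Without S13 to S16 the ratio of Nono was 1.09, that of Carm1 2.504, that of Sox21 0.441 and that of Prmt6 0.444, so that 3 members were past 2-fold. With 1 of the 50 blastomeres left out at a time, no member was past 2-fold in 19 cases, Prmt6 was in 21, Sox21 in 19, Carm1 in 4 and Neat1 in 1. With medians in place of means, Carm1, Sox21 and Prmt6 were past 2-fold, with ratios of 38.1, 0.37 and 0.023. The medians of Carm1 were 0.0225 and 0.856 FPKM, so its ratio rests on a very low 4-cell value. Each stage was treated as 1 sample, so the ratios have no replicate check.

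Of the 14 further genes of arginine methylation listed in both tables, Prmt9 and Padi4 were more than 2-fold higher at the 8-cell stage and Prmt2 was more than 2-fold lower. Prmt9 had means of 4.04 and 16.9 FPKM, a ratio of 4.18, and was above 1 FPKM in 9 of the 24 and 22 of the 26 blastomeres. Padi4 had means of 0.850 and 2.43 FPKM from 4 blastomeres above 1 FPKM at each stage, and Prmt2 4.66 and 2.04 FPKM. Single blastomeres carried both, since the ratio of Prmt2 was 2.82, in the other direction, without S18, the gene-poor column with 95.1 FPKM, and that of Padi4 was 1.28 without a column named NA with 36.01 FPKM. The median ratio of this list was 1.01. Of the 14 paraspeckle genes, Rbm14 with a ratio of 2.60 and Rbmx with 2.24 were higher, and Cpsf6 with 0.436 was lower. Without S13 to S16 the ratio of Rbmx was 1.90, within 2-fold. The median ratio of these was 0.956.

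**Figure D5:**
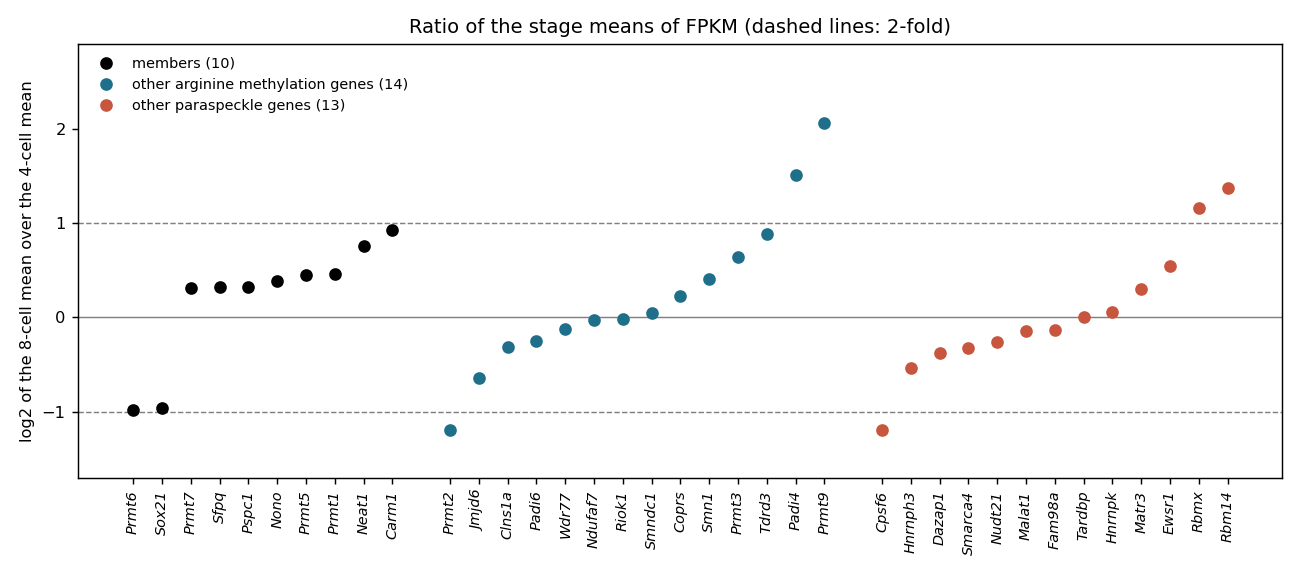
Ratio of the 8-cell mean to the 4-cell mean of FPKM, on a log2 axis, for the 10 members, 14 further arginine methylation genes and 13 of the 14 further paraspeckle genes. Each point is a gene and the dashed lines mark 2-fold. No member lies beyond the lines, and Prmt9, at a ratio of 4.18, lies farthest above them.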

How the data were processed

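Single blastomeres were lysed and their RNA was amplified by the Smart-seq2 protocol into Nextera XT libraries. The authors aligned the reads to mm10 with STAR 2.5.1b, counted uniquely aligned reads with HTSeq on RefSeq genes and deposited a table of FPKM values for each stage. The paper's supplement gives the total and the uniquely mapped reads of each blastomere. Which gene lengths and totals were used for the FPKM is not given in the sources used here. The transposon tables were not used. Which stage a table belongs to was taken from the name under which it was deposited, and the paper gives the same counts of genes. None of the 50 columns could be given to a sample by its name, so the tests planned with limma, of lineage within embryo and of stage over embryos, were not run, and no test was made.

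Identifiers were matched to RefSeq names of GRCm38.p6, with 15200 of 15218 and 15320 of 15342 found. The fragments in each FPKM denominator were estimated from the steps between low values of genes with 1 curated transcript. Fragments behind a value use the length at which a member's lowest value is 1 fragment, or the union of its exons where no value is that low. Means, medians, SDs with a pseudocount of 1 and correlations were computed with Python 3.11.15, numpy 2.4.6 and pandas 2.3.3 and tested on simulated data. The genes of like mean were the 200 nearest in mean log2(FPKM+1). The named genes are the 10 members, 15 further genes of arginine methylation, 14 further paraspeckle genes, 4 fate factors, marker genes and the 5 genes most correlated with Carm1 and with Neat1 at each stage. Some other X- and Y-linked genes were named after their values were seen. Values of 2 of the named genes are not reported here. The members and lists were chosen with earlier results of these data known. The alternatives were other pseudocounts, summaries, scalings and numbers of like genes, and leaving out columns.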

Additional observations from a re-analysis of the deposited data

How the results depend on the processing

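The number of members past 2-fold between the stages, 0, depended on the setting. It was 3 with medians in place of means (Carm1 higher, with a 4-cell median between 0 and a value of 2 fragments, and Sox21 and Prmt6 lower), 1 with the blastomeres rescaled to the same sum (Prmt6 lower), 1 without the columns named NA (Carm1 higher), 1 as a difference of mean log2(FPKM+1) (Nono higher) and 3 with a pseudocount of 0.1 (Prmt6 lower, Nono and Pspc1 higher). Chosen after seeing the data, it was 3 without S13 to S16 (Carm1 higher, Sox21 and Prmt6 lower) and 1 without the gene-poor columns (Prmt6 lower). Leaving out 1 of the 50 blastomeres at a time gave 0 to 2, with 0 in 19 of the cases, and the genes past 2-fold were Sox21 and Prmt6 (lower) and Carm1 and Neat1 (higher). For the further genes it gave ratios of 0.311 to 2.82 for Prmt2, reversed at 2.82 without S18, and 1.28 to 4.13 for Padi4, within 2-fold without 1 column named NA, and moved none of Prmt9, Rbm14, Rbmx and Cpsf6 to within 2-fold.

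The number of members among the most uneven 10% at the 4-cell stage, 2, was 1 with a pseudocount of 0.1, with 100 or 500 genes of like mean and without the gene-poor columns (Nono in each), and 0 without S13 to S16 or among genes above 0 in every blastomere, which leaves 3 members. By the coefficient of variation it stayed at 2, Nono and Sox21. Leaving out 1 blastomere gave 1 to 2, Nono in each and Pspc1 in 8 of 24. At the 8-cell stage the number, 0, was 1 with a pseudocount of 0.1 and without the gene-poor columns (Prmt1 in both), and leaving out 1 blastomere gave 0 to 1, the 1 without S57 or S58. For Carm1, leaving out 1 blastomere gave 27.5% to 50.5% of like genes below it at the 4-cell stage.

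The r of Carm1 with Sox21 ran from -0.02 to 0.17 at the 4-cell and from -0.19 to 0.02 at the 8-cell stage as 1 blastomere was left out, and its other alternatives lay inside these ranges. The cause of these changes was not tested. The limits are column names without embryo or lineage, stages each treated as 1 sample and FPKM without counts. No paired analysis was possible because no column name gives an embryo or a lineage, and the lineage alternatives, with the replicate block, were not run. This limit is one of names. The order and depth of the columns were not matched to the reads that the paper's supplement gives for each blastomere. Whether such a match would place the columns in embryos and lineages was not tested.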

Other observations

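Outside the members, other X-linked genes showed the same 4 columns of the 4-cell stage. Hmgb3 was at most 0.153 FPKM in S13 to S16 and 122 to 597 FPKM in the other 20, Pbdc1 at most 0.0571 FPKM against 52.9 to 203 FPKM, Eif2s3x at most 0.0208 FPKM against 17.04 to 48.9 FPKM, and Ogt, the O-GlcNAc transferase, at most 0.0264 FPKM against 4.88 to 38.9 FPKM. Of the 542 listed X-linked genes, 66 were above 1 FPKM in at least 1 of the 4 columns. Above 1 FPKM in each of the other 20 columns were 53 X-linked and 1364 autosomal genes. Of these, 24 X-linked and 0 autosomal genes were below 0.1 FPKM in each of S13 to S16. The Y-linked Eif2s3y was above 1 FPKM in 3 of the 4 columns and in 8 of the other 20.

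Of 4 trophectoderm markers, the keratins Krt8 and Krt18 were higher at the 8-cell stage, a difference with no replicate check. Krt8 had a median of 0 at the 4-cell and 43.3 FPKM at the 8-cell stage, and Krt18 of 0 and 29.8 FPKM. Gata3 differed less, with medians of 0 and 0.238 FPKM and means of 2.215 and 2.81 FPKM. Cdx2 was not listed at the 4-cell stage and had a median of 0 at the 8-cell stage.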
